A study of Oryza sativa with 8 samples.

Results

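A set of 8 rice loci that make, split or carry sucrose, or that release sugar from starch, was followed through a salt treatment. They were chosen by name and locus identifier, with earlier results of these data known: sucrose phosphate synthase SPS1 (LOC_Os01g69030), the sucrose synthases SUS1 (LOC_Os03g28330), SUS2 (LOC_Os06g09450) and SUS3 (LOC_Os07g42490), the sucrose transporters SUT1 (LOC_Os03g07480) and SUT2 (LOC_Os12g44380), and the alpha-amylases RAmy3D (LOC_Os08g36910) and RAmy3E (LOC_Os08g36900). These 8 loci have 11 of the 55078 probes and are 8 of the 52795 loci on the array. Of them, 6 were bright enough to be tested, among 45411 tested loci in all, and the other two, SUS3 and RAmy3E, were well above background on no array.

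The samples were whole seedlings, 14 days old, of Pokkali, the indica line, and Nipponbare, the japonica line. The 4 groups were Pokkali after 8 h in 250 mM NaCl, Pokkali at 0 h, Nipponbare after 8 h in 250 mM NaCl and Nipponbare at 0 h, with 2 biological replicates in each and so 8 one-colour arrays. Neither line is described as carrying a transgene. There was no unsalted group at 8 h, so the effects of salt, of the hours that passed and of the time of day cannot be told apart, and "8 h against 0 h" below covers all of them.

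Sucrose is the main form in which plants move carbon from leaf to sink. Sucrose phosphate synthase makes its phosphorylated precursor, sucrose synthase splits sucrose reversibly into UDP-glucose and fructose, and invertases split it irreversibly into glucose and fructose. Sucrose transporters carry it across membranes, and alpha-amylases cut starch, which in a young rice seedling includes what is left in the grain. Genes of the RAmy3 class are known from rice embryos and cultured cells to be switched on when sugar runs short.

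Each value below is a scaled intensity, the background-corrected signal in scanner units after each array was set to the same 75th percentile. Differences are on the log2 scale, tested with limma over all 45411 loci, and "rose", "fell", "higher" and "lower" are used of tests with a Benjamini-Hochberg adjusted p under 0.05. Probes differ in how well they bind, so no level is compared between probes or between genes. Whether a probe binds the transcripts of Pokkali and Nipponbare equally well was not tested, and this holds for every comparison between the lines. In a whole seedling, fewer cells of a type and less RNA per cell cannot be told apart.

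Between 81.0% and 85.5% of the spots on an array were well above background. Replicates differed more at 0 h than at 8 h: the SD over loci of replicate 2 minus replicate 1 was 0.449 log2 units in Pokkali at 8 h and 0.630 at 0 h, against 0.443 in Nipponbare at 8 h and 0.622 at 0 h. The differences between the 0 h replicates ran alike in both lines, with a correlation across loci of 0.535, which has no test because loci are not independent. Results that rest on the 0 h arrays are therefore also given with the 0 h arrays of replicate 1 left out in both lines, and likewise for replicate 2. Labelled as whole seedlings, the samples held leaf, root and endosperm marker signal together, as described after the results.

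After 8 h, 3 of the 6 tested loci changed in Pokkali (1 higher, 2 lower) and 4 of 6 changed in Nipponbare (2 higher, 2 lower). Over all tested loci, 27.2% changed in Pokkali (15.2% higher, 12% lower) and 26.3% in Nipponbare (14% higher, 12.3% lower). RAmy3D rose and SPS1 and SUS1 fell in both lines, and SUT1 rose in Nipponbare. The median log2 difference of the 6 loci was 0.31 in Pokkali and 0.45 in Nipponbare, against 0.08 and 0.05 over all tested loci. With both 0 h arrays of replicate 2 left out the counts were 1 of 6 in Pokkali and 2 of 6 in Nipponbare, where 19.2% and 18.3% of all loci changed. With those of replicate 1 left out they were 4 of 6 in both lines, where 28.2% and 29.3% of all loci changed.

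**Figure D1:**
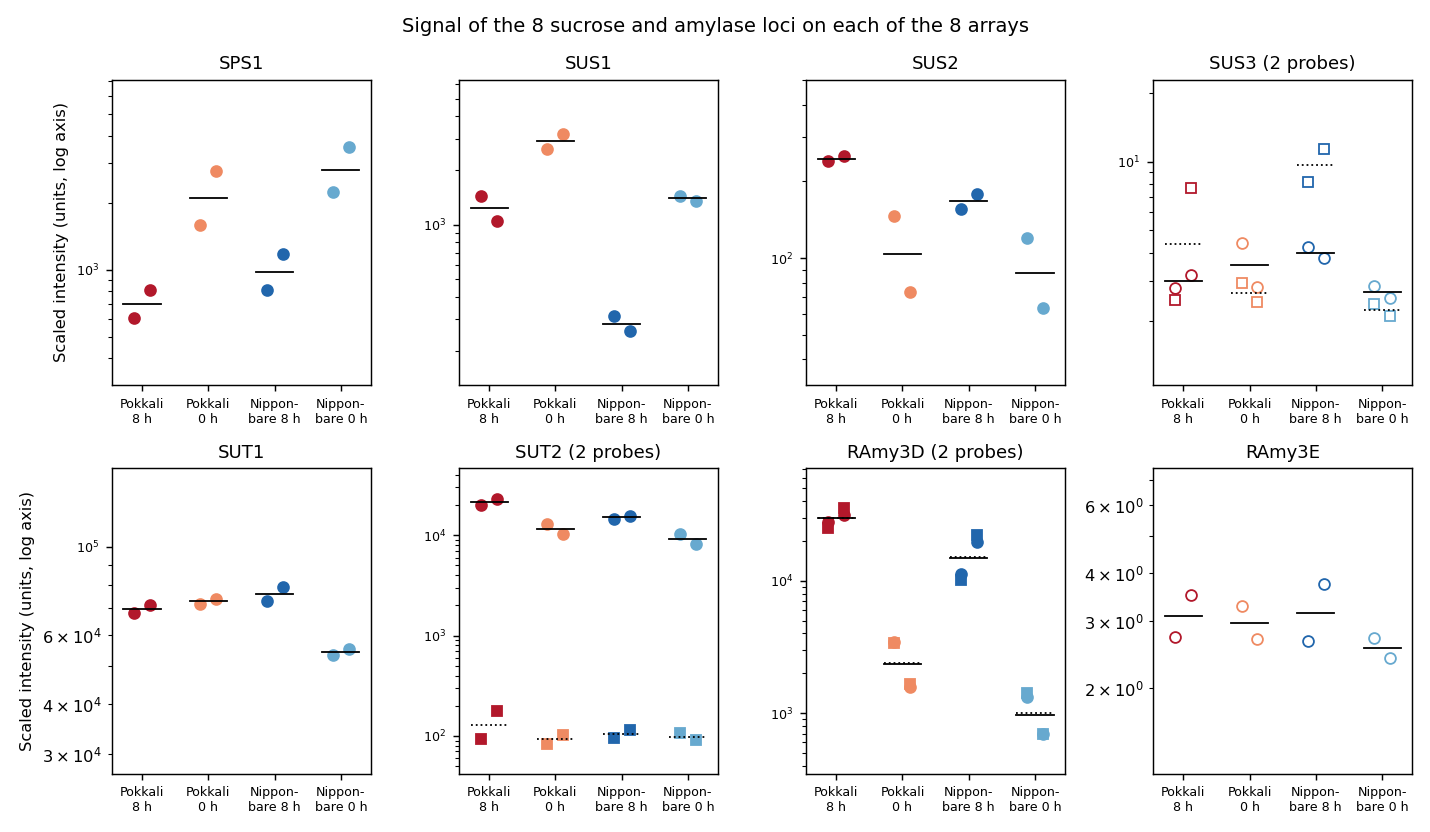
Scaled intensity (log axis) of the 8 loci on each of the 8 arrays, with a point per array and probe; lines are the geometric means of the 2 replicates, squares and dotted lines the second probe, and open symbols are values not well above background. For RAmy3D all 8 h arrays lie above all 0 h arrays, for SPS1 all 8 h arrays lie below all 0 h arrays, and both dim loci stay open throughout.

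SPS1, the gene for an enzyme that makes sucrose phosphate, had scaled intensities of 607 and 809 in Pokkali at 8 h, against 1580 and 2766 in Pokkali at 0 h. In Nipponbare it had 813 and 1181 at 8 h, against 2223 and 3561 at 0 h. Every 8 h array lay below every 0 h array of either line, and in all 4 groups replicate 2 was the higher one. The level fell 2.98-fold in Pokkali (log2 difference -1.58, SE 0.38, 95% interval -2.48 to -0.67, adjusted p = 0.0258). It fell 2.87-fold in Nipponbare (log2 difference -1.52, SE 0.38, 95% interval -2.43 to -0.62, adjusted p = 0.0295).

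The SPS1 calls depended on single arrays, while the direction stayed down throughout. In Pokkali, the adjusted p went up to 0.105 without 0 h replicate 2, to 0.117 without 8 h replicate 1, to 0.0796 without 8 h replicate 2 and to 0.0725 with both 0 h arrays of replicate 2 left out. In Nipponbare it was 0.133 without 0 h replicate 2, 0.135 without 8 h replicate 1, 0.0751 without 8 h replicate 2 and 0.0736 with both 0 h arrays of replicate 2 left out. Leaving out Pokkali 8 h replicate 1 or 2 also took the Nipponbare call to adjusted p = 0.0504 or 0.0512, through the shared estimate of spread. SPS1 did not differ significantly between the lines, with Pokkali minus Nipponbare at -0.48 (95% interval -1.39 to 0.42, adjusted p = 0.411) at 8 h and -0.43 (95% interval -1.33 to 0.48, adjusted p = 0.516) at 0 h.

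SUS1 was the tested locus whose level differed between the lines. Sucrose synthases feed UDP-glucose into cell-wall and starch synthesis. Its scaled intensities were 1446 and 1050 in Pokkali at 8 h, against 2636 and 3178 in Pokkali at 0 h. In Nipponbare they were 311 and 259 at 8 h, against 1444 and 1358 at 0 h. The groups did not overlap within either line, and both Pokkali 8 h arrays lay near the Nipponbare 0 h arrays. SUS1 fell 2.35-fold in Pokkali (log2 difference -1.23, SE 0.21, 95% interval -1.75 to -0.72, adjusted p = 0.00949). In Nipponbare the fall was 4.93-fold (log2 difference -2.30, SE 0.21, 95% interval -2.82 to -1.79, adjusted p = 0.00186). The Nipponbare call passed in all 20 alternatives run, with adjusted p between 0.00106 and 0.0177. The Pokkali call was lost without Pokkali 8 h replicate 2 (adjusted p = 0.0544) and with both 0 h arrays of replicate 2 left out (adjusted p = 0.0581).

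At 8 h SUS1 was 4.34-fold higher in Pokkali than in Nipponbare (log2 difference 2.12, SE 0.21, 95% interval 1.60 to 2.63, adjusted p = 0.00106). It was the 1 of 6 loci that differed between the lines at that time, when 22% of all tested loci differed (10.5% higher and 11.4% lower in Pokkali). This call passed in all 20 alternatives, with adjusted p between 0.000905 and 0.0120. At 0 h SUS1 was 2.07-fold higher in Pokkali (log2 difference 1.05, SE 0.21, 95% interval 0.53 to 1.56, adjusted p = 0.0197), again as 1 of 6 loci, when 16.8% of all loci differed (6.72% higher and 10.1% lower in Pokkali). The 0 h call was lost without Nipponbare 0 h replicate 1 (adjusted p = 0.0693) or replicate 2 (0.0848), without Pokkali 0 h replicate 2 (0.0888), without scaling between arrays (0.0760), and with both 0 h arrays of replicate 1 (0.0885) or of replicate 2 (0.181) left out. With replicate 1 at 0 h left out, 12.2% of all loci differed at 0 h and 24.6% at 8 h, and with replicate 2 left out 10.8% and 25.1%. From high to low the group means of SUS1 ran Pokkali 0 h, Nipponbare 0 h, Pokkali 8 h and Nipponbare 8 h, and the middle pair of groups was not tested against each other.

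Whether the fall of SUS1 differed in size between the lines was tested directly. The Pokkali change minus the Nipponbare change was 1.07 log2 units (SE 0.30, 95% interval 0.34 to 1.80), a smaller fall in Pokkali, with an unadjusted p of 0.0108 that gave an adjusted p of 0.268. An unadjusted p under 0.05 in this test was found for 2 of 6 loci (SUS1 and SUT1) and for 4726 of the 45411 tested loci. After adjustment none of the 6 loci passed by limma (0 of 6). Of all tested loci 0.346% passed (0.203% with the change in Pokkali above that in Nipponbare and 0.143% below it). With the 0 h arrays of replicate 1 or of replicate 2 left out, 0 of 6 passed as well, and 0.0216% and 0.00218% of all loci. The difference in SUS1 response therefore did not pass the correction, and over the alternatives its adjusted p lay between 0.240 and 0.569.

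SUS2, another sucrose synthase, read more at 8 h than at 0 h but did not pass the test in either line. It had scaled intensities of 239.8 and 251 in Pokkali at 8 h, against 147 and 73.8 in Pokkali at 0 h. Nipponbare gave 156 and 179 at 8 h, against 119.9 and 63.4 at 0 h. The 8 h arrays of each line lay above its 0 h arrays, and at 0 h replicate 2 was the lower one in both lines, which was the reverse of SPS1. The log2 difference was 1.24 in Pokkali (SE 0.41, 95% interval 0.26 to 2.22, adjusted p = 0.0668) and 0.94 in Nipponbare (SE 0.41, 95% interval -0.04 to 1.92, adjusted p = 0.137). With both 0 h arrays of replicate 1 left out it passed in both, at 1.73 in Pokkali (adjusted p = 0.00854) and 1.40 in Nipponbare (adjusted p = 0.0113). The Pokkali difference also passed without Pokkali 0 h replicate 1 (0.0325), without Nipponbare 0 h replicate 1 (0.0483) or replicate 2 (0.0476), and after normexp background correction (0.0425). SUS2 did not pass between the lines, at 0.55 (95% interval -0.43 to 1.53, adjusted p = 0.384) at 8 h and 0.26 (95% interval -0.72 to 1.23, adjusted p = 0.738) at 0 h, nor did its response differ (0.30, 95% interval -1.09 to 1.68, adjusted p = 0.940).

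SUS3, a sucrose synthase known from rice grain, has 2 probes, and neither was well above background on any of the 8 arrays. Its first probe had scaled intensities of 2.81 and 3.20 in Pokkali at 8 h and 4.41 and 2.82 at 0 h, and 4.21 and 3.79 in Nipponbare at 8 h and 2.84 and 2.54 at 0 h. Its second probe had 2.48 and 7.62 in Pokkali at 8 h and 2.93 and 2.42 at 0 h, and 8.17 and 11.4 in Nipponbare at 8 h and 2.39 and 2.11 at 0 h. Values this dim have no usable order, so no fold is given.

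SUT1, a proton-coupled sucrose importer of the plasma membrane known for phloem loading and grain filling, had signal on every array with a narrow spread. Its scaled intensities were 67894 and 71121 in Pokkali at 8 h, against 71658 and 73855 in Pokkali at 0 h. Nipponbare had 73138 and 78891 at 8 h, against 53358 and 55160 at 0 h. The Nipponbare 0 h arrays were the low ones, and the other 3 groups lay close together. In Pokkali the log2 difference was -0.07 (SE 0.14, 95% interval -0.39 to 0.26, adjusted p = 0.7501). In Nipponbare SUT1 rose 1.40-fold (log2 difference 0.49, SE 0.14, 95% interval 0.16 to 0.81, adjusted p = 0.0428).

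The Nipponbare rise of SUT1 passed in only 5 of the 20 alternatives, among them the deposited value table, which repeats the fit reported. It was lost without any one of the 8 arrays: Nipponbare 8 h replicate 1 (adjusted p = 0.118) or 2 (0.212), Nipponbare 0 h replicate 1 (0.128) or 2 (0.130), Pokkali 8 h replicate 1 (0.0718) or 2 (0.0731), and Pokkali 0 h replicate 1 (0.0599) or 2 (0.0589). It was also lost with both 0 h arrays of replicate 1 (0.108) or of replicate 2 (0.104) left out. The log2 difference was 0.16 after quantile normalization (adjusted p = 0.426) and 0.27 without scaling (adjusted p = 0.226). The raw signals of SUT1, between 60456 and 75427 units, were not flagged as saturated on any array. Pokkali minus Nipponbare was -0.13 at 8 h (95% interval -0.46 to 0.20, adjusted p = 0.551) and 0.42 at 0 h (95% interval 0.10 to 0.75, adjusted p = 0.0879, or 0.0325 after normexp correction). The response of SUT1 in Pokkali minus that in Nipponbare was -0.55 (SE 0.19, 95% interval -1.01 to -0.09, unadjusted p = 0.0262, adjusted p = 0.373).

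SUT2, known in rice as a sucrose transporter of the vacuolar membrane, has 2 probes that disagreed. The probe to transcript model 1 had scaled intensities of 20249 and 23208 in Pokkali at 8 h, against 12922 and 10274 in Pokkali at 0 h. On the same probe Nipponbare had 14557 and 15720 at 8 h, against 10236 and 8113 at 0 h. All 8 h arrays lay above all 0 h arrays on that probe. Fitted alone, it rose 1.88-fold in Pokkali (log2 difference 0.91, SE 0.20, adjusted p = 0.0185) and 1.66-fold in Nipponbare (0.73, SE 0.20, adjusted p = 0.0377).

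The probe to SUT2 transcript model 2 had 93.4 and 177 in Pokkali at 8 h, against 83.9 and 103 in Pokkali at 0 h. In Nipponbare it had 94.4 and 115 at 8 h, against 106 and 91.2 at 0 h. Its groups overlapped in both lines, with 1 high array, Pokkali 8 h replicate 2. Alone it gave 0.47 in Pokkali (SE 0.32, adjusted p = 0.316) and 0.08 in Nipponbare (SE 0.32, adjusted p = 0.876). The mean of both probes, which was the value tested for the locus, gave 0.69 in Pokkali (SE 0.22, 95% interval 0.15 to 1.23, adjusted p = 0.0662) and 0.41 in Nipponbare (SE 0.22, 95% interval -0.14 to 0.95, adjusted p = 0.230). The Pokkali mean passed without Pokkali 8 h replicate 1 (0.0425) and after normexp correction (0.0451). Between the lines the locus gave 0.41 at 8 h (95% interval -0.13 to 0.95, adjusted p = 0.248) and 0.13 at 0 h (95% interval -0.41 to 0.67, adjusted p = 0.766), and its response differed by 0.28 (95% interval -0.48 to 1.05, adjusted p = 0.876).

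RAmy3D, the alpha-amylase known for its induction by sugar starvation, had the widest change of the 6 loci. Its first probe had scaled intensities of 28002 and 31509 in Pokkali at 8 h, against 3427 and 1586 in Pokkali at 0 h. In Nipponbare that probe had 11219 and 19715 at 8 h, against 1321 and 696 at 0 h. The lowest 8 h array lay well above the highest 0 h array, and at 0 h replicate 2 was the lower one in both lines. The second probe read nearly alike, with 24821 and 35288 in Pokkali at 8 h and 3413 and 1667 at 0 h, and with 10205 and 22308 in Nipponbare at 8 h and 1423 and 699.6 at 0 h.

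Averaged over its probes, RAmy3D rose 12.6-fold in Pokkali (log2 difference 3.65, SE 0.51, 95% interval 2.41 to 4.89, adjusted p = 0.00524). It rose 15.3-fold in Nipponbare (log2 difference 3.94, SE 0.51, 95% interval 2.70 to 5.18, adjusted p = 0.00422). Both calls passed in all 22 alternatives, with the highest adjusted p at 0.0420 in Pokkali and 0.0312 in Nipponbare. The response did not differ significantly between the lines, at -0.28 for Pokkali minus Nipponbare (95% interval -2.04 to 1.47, adjusted p = 0.957), an interval wide enough to hold a several-fold difference. RAmy3D in Pokkali minus Nipponbare was 0.98 at 8 h (95% interval -0.26 to 2.23, adjusted p = 0.229) and 1.27 at 0 h (95% interval 0.03 to 2.51, adjusted p = 0.160), with both Pokkali arrays above both Nipponbare arrays at either time.

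RAmy3E, another alpha-amylase of the same class, was well above background on no array. Its single probe had scaled intensities of 2.73 and 3.50 in Pokkali at 8 h and 3.27 and 2.69 at 0 h, and 2.65 and 3.74 in Nipponbare at 8 h and 2.71 and 2.40 at 0 h. In the RefSeq gene table, genes named RAmy3D and RAmy3E lie next to each other on chromosome 8 with 0 protein-coding genes between them. The bright probes of RAmy3D and the dim probe of RAmy3E therefore belong to neighbouring genes, and how far either probe also binds other amylase transcripts was not tested. The same holds for the probes of the sucrose synthase family.

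**Figure D2:**
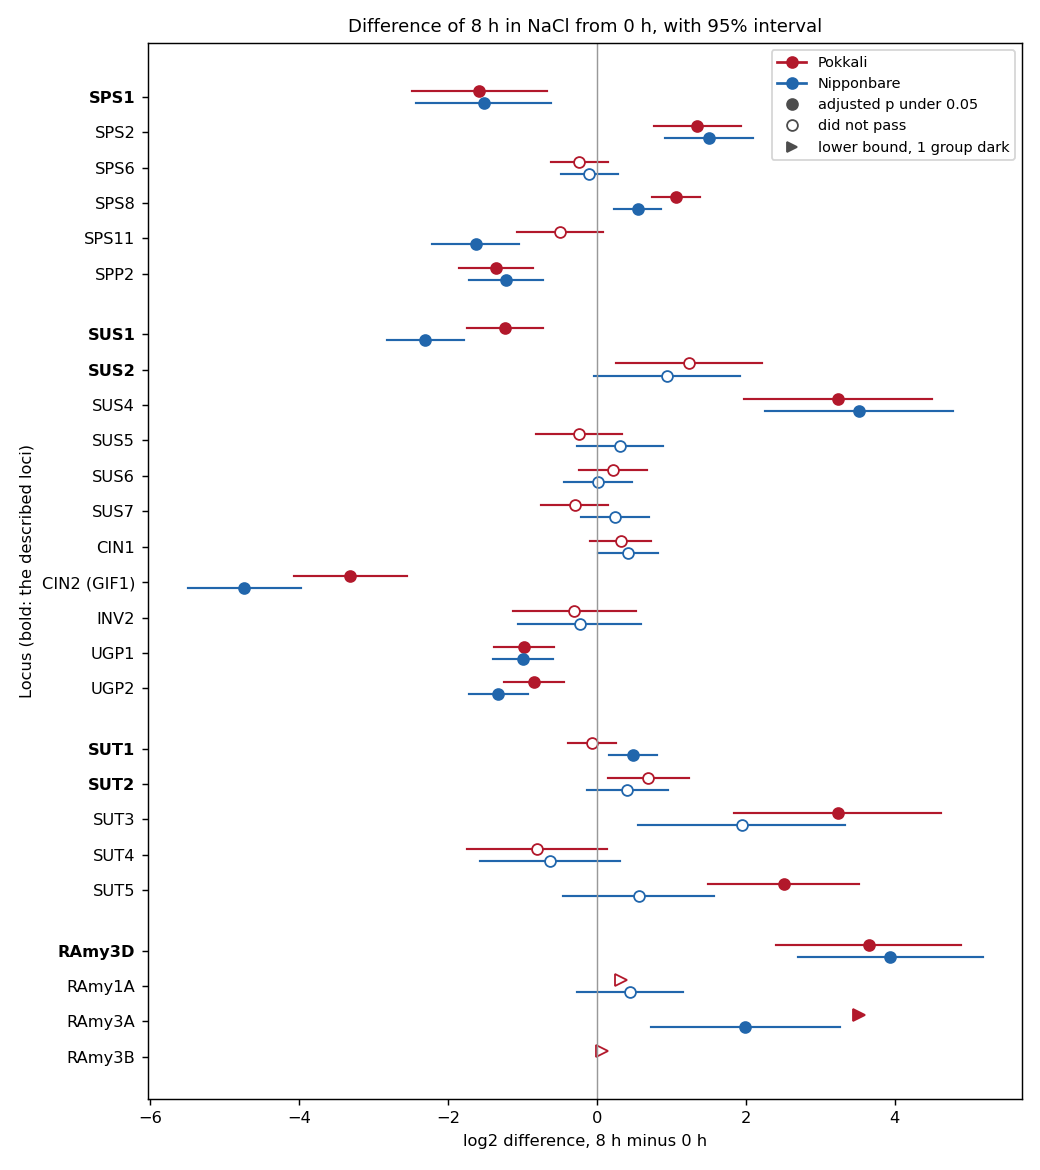
Log2 difference of 8 h in NaCl from 0 h with its 95% interval (Pokkali red, Nipponbare blue) for the 6 tested loci, in bold, and 20 further loci of sucrose and starch use, where filled symbols passed at an adjusted p under 0.05 and triangles are bounds for loci not well above background in one group. RAmy3D and SUS4 lie far to the right and CIN2 far to the left in both lines, and RAmy3B in Nipponbare has no symbol because it was dim in both groups.

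A list of 23 further loci of sucrose and starch use gave a setting for these values. Of the 23, 20 were tested, INV3 and RAmy1C were too dim, and RAmy2A was not analysed here. In Pokkali 6 of 20 rose and 4 fell, where 15.2% of all tested loci rose and 12% fell. In Nipponbare 4 rose and 5 fell, where 14% and 12.3% of all loci did. The list's median log2 difference was -0.01 in Pokkali and 0.28 in Nipponbare, or -0.08 and 0.13 with loci dim in one group at their bound and a locus dim in both at 0, against 0.08 and 0.05 over all loci. Leaving out arrays moved the Pokkali counts between 3 and 7 higher and 2 and 5 lower, and the Nipponbare counts between 1 and 4 higher and 3 and 6 lower.

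Among the genes of sucrose synthesis the directions were mixed. SPS2 rose 2.55-fold in Pokkali (adjusted p = 0.0109) and 2.83-fold in Nipponbare (adjusted p = 0.00791), the other way from SPS1. SPS8 rose 2.08-fold in Pokkali (adjusted p = 0.00390) and 1.46-fold in Nipponbare (adjusted p = 0.0285). SPS11 fell 3.09-fold in Nipponbare (adjusted p = 0.00594) and its Pokkali difference was -0.49 (adjusted p = 0.176). SPP2, whose enzyme removes the phosphate in the last step to sucrose, fell 2.56-fold in Pokkali (adjusted p = 0.00659) and 2.33-fold in Nipponbare (adjusted p = 0.00902). The calls of SPS2 were lost without Pokkali 8 h replicate 2 (0.0684) in Pokkali and without Nipponbare 8 h replicate 2 (0.0583) in Nipponbare. That of SPP2 in Nipponbare was lost without Nipponbare 8 h replicate 2 (0.0669) and with both 0 h arrays of replicate 2 left out (0.0508). That of SPS8 in Nipponbare was lost in 11 alternatives, 8 of them by leaving out arrays (adjusted p from 0.0515 to 0.146), and was 0.164 without scaling. Its probes alone gave 0.49 (adjusted p = 0.0634) and 0.60 (adjusted p = 0.0216) in Nipponbare.

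Among the genes that split sucrose, SUS4 and CIN2 moved furthest. SUS4, a sucrose synthase, had scaled intensities of 88219 and 86829 in Pokkali at 8 h, against 15925 and 5404 in Pokkali at 0 h. In Nipponbare it had 78250 and 79508 at 8 h, against 9474 and 4986 at 0 h. The groups did not overlap, and SUS4 rose 9.43-fold in Pokkali (adjusted p = 0.00784, or 0.0513 without Pokkali 8 h replicate 2) and 11.5-fold in Nipponbare (adjusted p = 0.00607), while SUS1 fell in both lines.

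CIN2 (GIF1), a cell-wall invertase known for its part in grain filling, had 86.6 and 44.8 in Pokkali at 8 h, against 632 and 605 in Pokkali at 0 h. It had 18.3 and 14.2 in Nipponbare at 8 h, where 1 of 2 arrays was well above background, against 421 and 439.6 in Nipponbare at 0 h. It fell 9.92-fold in Pokkali (adjusted p = 0.00204) and 26.6-fold in Nipponbare (adjusted p = 0.00112). UGP1 and UGP2, the genes for UDP-glucose pyrophosphorylases that interconvert UDP-glucose and glucose 1-phosphate, also fell in both lines. The mean of the 2 UGP1 probes fell 1.97-fold in Pokkali (adjusted p = 0.00906) and 2.00-fold in Nipponbare (adjusted p = 0.00856), but its probes disagreed. Fitted alone, the probe to UGP1 transcript model 1 fell 3.39-fold in Pokkali (adjusted p = 0.00298) and 3.50-fold in Nipponbare (adjusted p = 0.00265). The probe to UGP1 transcript model 2 did not pass, at -0.20 in Pokkali (adjusted p = 0.445) and -0.19 in Nipponbare (adjusted p = 0.477). UGP2 fell 1.80-fold in Pokkali (adjusted p = 0.0140) and 2.50-fold in Nipponbare (adjusted p = 0.00384). UGP1 was lost without Pokkali 8 h replicate 2 in Pokkali (0.0539) and without Nipponbare 8 h replicate 2 in Nipponbare (0.0663). UGP2 in Pokkali was lost without Pokkali 0 h replicate 2 (0.0640), without Pokkali 8 h replicate 2 (0.0857) and with both 0 h arrays of replicate 2 left out (0.0646). SUS5, SUS6, SUS7, CIN1 and the vacuolar invertase INV2 did not pass in either line.

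Of the other transporters, SUT3 and SUT5 rose in Pokkali. SUT3 had 29901 and 31242 in Pokkali at 8 h, against 5274 and 2006 in Pokkali at 0 h, a rise of 9.40-fold (adjusted p = 0.0104). In Nipponbare it had 28258 and 25891 at 8 h, against 11514 and 4283 at 0 h, with a log2 difference of 1.95 (adjusted p = 0.0509). The 8 h arrays of SUT3 in both lines lay close together and above all its 0 h arrays. SUT5 had 476 and 200.01 in Pokkali at 8 h, against 64.2 and 45.9 in Pokkali at 0 h, a rise of 5.69-fold (adjusted p = 0.00858). In Nipponbare SUT5 gave 0.56 (adjusted p = 0.364). The SUT3 call in Pokkali was lost without Pokkali 8 h replicate 1 (0.0502) or 2 (0.0638), and the SUT5 call with both 0 h arrays of replicate 2 left out (0.0617). SUT3 in Nipponbare passed in 8 alternatives, with adjusted p from 0.00535 to 0.0419. SUT4 did not pass in either line (-0.80 in Pokkali, adjusted p = 0.174, and -0.63 in Nipponbare, adjusted p = 0.281), though it passed as lower in both with both 0 h arrays of replicate 1 left out (0.0155 and 0.0185).

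RAmy3A was the further amylase that rose. It had 177 and 131 in Pokkali at 8 h and was not well above background at 0 h, where it read 8.998 and 8.71, so it was at least 11.5-fold higher at 8 h. Limma, fitted to the signals as read, gave an adjusted p of 0.00413, which does not test that bound. The bound sets the 8 h mean against the lowest signal counted as well above background on each 0 h array. In Nipponbare it had 29.2 and 99.4 at 8 h, against 13.8 and 13.3 at 0 h, a rise of 3.98-fold (adjusted p = 0.0363) that was lost in 11 alternatives, 9 of them by leaving out arrays (adjusted p from 0.0530 to 0.1496). RAmy1A and RAmy3B did not pass in either line and were well above background on 4 and 2 of the 8 arrays.

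**Figure D3:**
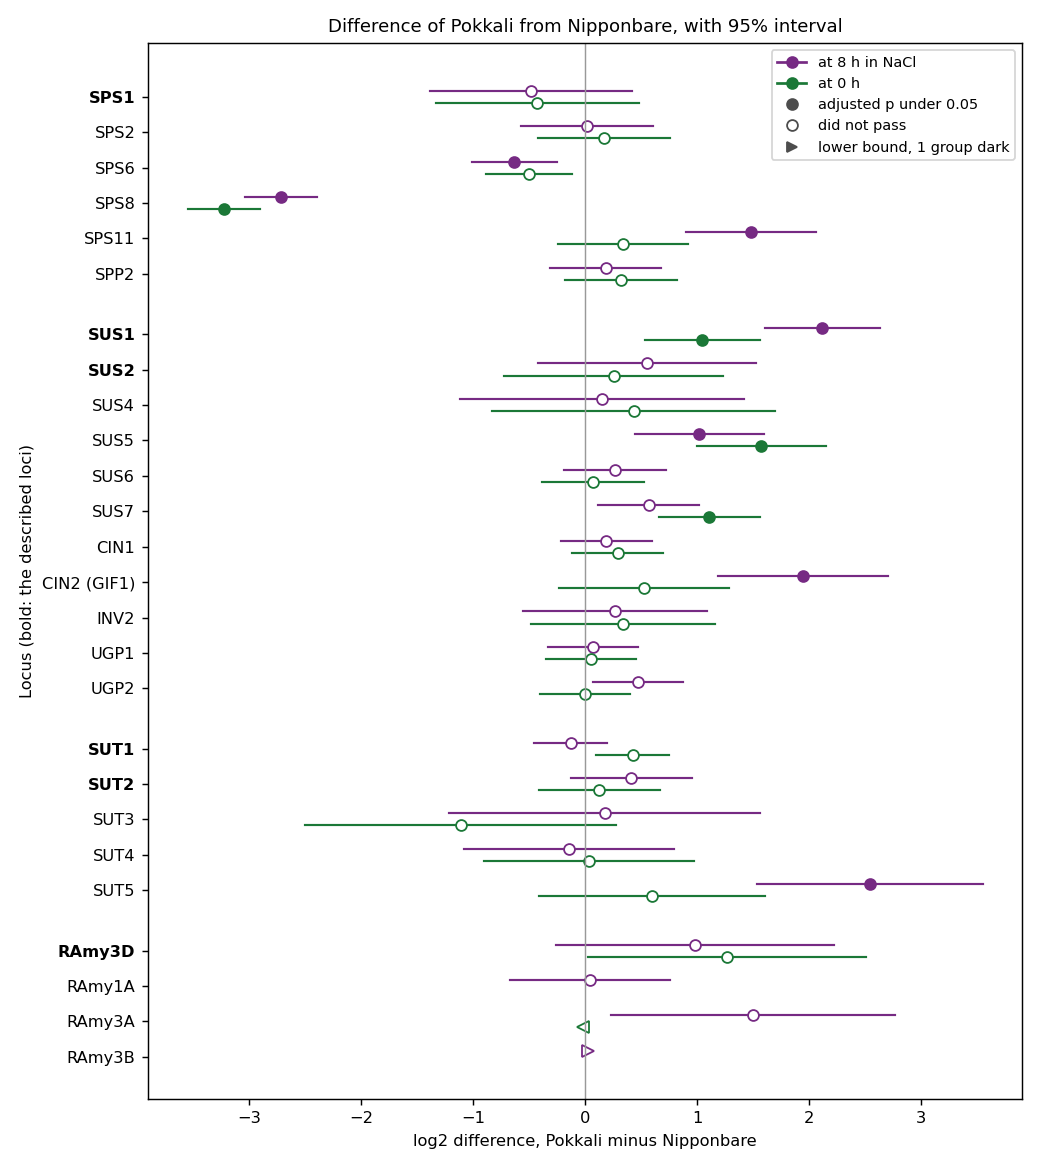
Log2 difference of Pokkali from Nipponbare with its 95% interval, at 8 h in NaCl (purple) and at 0 h (green), for the 6 tested loci, in bold, and the 20 further loci, where filled symbols passed at an adjusted p under 0.05 and triangles are bounds. SUS1 lies to the right at both times, at 2.12 and 1.05, and SPS8 far to the left at both.

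Between the lines, 6 of the 20 further loci differed at 8 h (4 higher and 2 lower in Pokkali), when 22% of all tested loci differed. At 0 h 3 of the 20 differed (2 higher, 1 lower), close to the 16.8% of all loci. SPS8 was 6.57-fold lower in Pokkali than in Nipponbare at 8 h (adjusted p = 6.2e-05) and 9.38-fold lower at 0 h (adjusted p = 3.2e-05). SUS5 was 2.03-fold higher in Pokkali at 8 h (adjusted p = 0.0272) and 2.98-fold higher at 0 h (adjusted p = 0.00622). SUS7 was higher in Pokkali at 0 h (log2 difference 1.11, adjusted p = 0.00992). At 8 h SPS11 was 2.78-fold higher (adjusted p = 0.00757), CIN2 (GIF1) 3.86-fold higher (adjusted p = 0.00733), SUT5 5.82-fold higher (adjusted p = 0.00790) and SPS6 1.55-fold lower (adjusted p = 0.0345) in Pokkali. None of the 20 passed the test of whether the lines' changes differed (0 of 20 by limma), where 0.346% of all tested loci did. An unadjusted p under 0.05 in that test was found for 5 of the 20 and for 4726 of the 45411 tested loci. SPS11 had the smallest p there, at 1.14 (95% interval 0.31 to 1.96, adjusted p = 0.294).

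Several of these line differences rested on few arrays. SPS6 was lost without any one of 6 arrays, the 4 at 8 h and both of Nipponbare at 0 h (adjusted p from 0.0542 to 0.159). SUS5 at 8 h was lost without any one of the 8 h arrays (from 0.0639 to 0.144) and without scaling (0.0615), and at 0 h with both 0 h arrays of replicate 2 left out (0.0662). SUS7 was lost without Nipponbare 0 h replicate 2 (0.0510) and with both 0 h arrays of replicate 2 left out (0.0744). SPS11 was lost without Pokkali 8 h replicate 2 (0.0545), and CIN2 (GIF1) and SUT5 without Nipponbare 8 h replicate 2 (0.0521 and 0.0545). SPS8 passed between the lines in every alternative run, at both times. Whether its probes bind equally well in both lines was not tested.

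A list of 9 loci of sugar signalling and sugar response was set beside the RAmy3 amylases, and all 9 were tested. In Pokkali 2 of 9 rose and none fell, and in Nipponbare 1 rose and none fell, where 27.2% and 26.3% of all loci changed. These counts show nothing particular to the list, and the list's median was -0.01 in Pokkali and 0.02 in Nipponbare. CIPK15, a kinase that acts upstream of the energy-sensing kinase SnRK1A in rice under low oxygen, rose 2.06-fold in Pokkali (adjusted p = 0.0201) and 2.05-fold in Nipponbare (adjusted p = 0.0211). ASN1, an asparagine synthetase known to respond to sugar status and not to relay it, rose 2.44-fold in Pokkali (adjusted p = 0.0252), with a log2 difference of 0.82 in Nipponbare (adjusted p = 0.0937). MYBS1, a MYB factor known to activate alpha-amylase genes in sugar starvation, gave -1.09 in Pokkali (adjusted p = 0.0503) and -0.20 in Nipponbare (adjusted p = 0.687). The Pokkali difference of MYBS1 passed as lower in 4 alternatives, with the replicate number as a block (0.0117), with probes above background on all arrays (0.0411) and with Nipponbare 0 h replicate 1 (0.0392) or replicate 2 (0.0385) left out.

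SnRK1A itself did not pass after 8 h, with -0.33 in Pokkali (adjusted p = 0.129) and -0.05 in Nipponbare (adjusted p = 0.836). At 8 h it was the 1 of 9 loci that differed between the lines, when 22% of all tested loci differed, so this count shows nothing particular to the list. SnRK1A was lower in Pokkali by a log2 difference of -0.72 (adjusted p = 0.0137), a call lost without any one of the 8 h arrays. Others passed at 8 h in some alternatives only: GAMYB as lower in Pokkali in 7 (adjusted p from 0.00879 to 0.0421), CIPK15 as higher in 4 (from 0.0421 to 0.0479), and with the replicate block MYBS1 as lower (0.0298) and ASN1 as higher (0.0373). None of the 9 differed at 0 h (0 of 9 by limma), when 16.8% of all tested loci differed, and CIPK15 had the smallest p there at 0.79 (adjusted p = 0.0657). In alternatives GAMYB passed as lower in Pokkali at 0 h in 2 fits with arrays left out, and SnRK1A in 1 other setting (adjusted p = 0.0269). None of the 9 differed in response either, where 0.346% of all tested loci did, and MYBS1 had the smallest p there at -0.89 (adjusted p = 0.603). In Pokkali the CIPK15 call was lost when either 8 h array was left out (0.0892 for replicate 1, 0.0853 for replicate 2), when 0 h replicate 2 was left out (0.0904) and with both 0 h arrays of replicate 2 left out (0.0841). In Nipponbare CIPK15 was lost without 0 h replicate 2 (0.103), without 8 h replicate 2 (0.122), with both 0 h arrays of replicate 2 left out (0.0798), with quantile normalization (0.0709) and without scaling (0.0542). ASN1 in Pokkali was lost when either 8 h array was left out (0.117 for replicate 1, 0.0678 for replicate 2), when 0 h replicate 2 was left out (0.107), with both 0 h arrays of replicate 2 left out (0.0576) and without scaling (0.0597).

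Across the 8 arrays some of these loci ran close together. The Pearson correlation of log2 level, over 8 arrays that share 4 groups and 1 scaling and with 25 candidates for each locus, is given as a description with no test. RAmy3D was most like SUS4 (0.97) and least like SPS1 (-0.94). SUS2 and SUT2 were each most like RAmy3D (0.93 and 0.88). SPS1 was most like UGP1 (0.89), SUS1 most like SPS11 (0.94), and SUT1 most like CIN1 (0.70).

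Markers of the organs in a seedling moved with time in both lines. The 4 leaf markers summed to 24171 to 35750 scaled units in Pokkali at 8 h, against 97597 to 119050 in Pokkali at 0 h, and to 17523 to 24692 in Nipponbare at 8 h, against 102650 to 107470 in Nipponbare at 0 h. Of them, 3 fell in Pokkali (PSBO, the chlorophyll a/b binding protein and 1 of 2 RBCS loci) and all 4 in Nipponbare. Of all tested loci, 12% fell in Pokkali and 12.3% in Nipponbare. The 4 root markers summed to 1156 to 1266 in Pokkali at 8 h, against 7198 to 11364 in Pokkali at 0 h, and to 699 to 735 in Nipponbare at 8 h, against 7460 to 15838 in Nipponbare at 0 h. RCC3 and LSI1 fell in both lines, and LSI2 did not pass. IRT1 also passed as lower at 8 h in both, but it was not well above background at 8 h on any array. At 0 h it was so on 2 of 2 Pokkali arrays and on 1 of 2 Nipponbare arrays. It was kept for the tests only through Pokkali at 0 h, where it read highest, so its fall is not a separate result. IRT1 was lost in Nipponbare when 0 h replicate 2 (adjusted p = 0.0520) or 8 h replicate 1 (0.0585) was left out, and in Pokkali when 8 h replicate 2 was left out (0.0503). It was also lost with normexp correction in both (0.0803 in Pokkali, 0.262 in Nipponbare) and, in Nipponbare, with both 0 h arrays of replicate 2 left out (0.0645).

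In which organ the amylase signal arose was not tested. The 5 endosperm markers were listed because the starch that alpha-amylases cut includes what is left in a young seedling's grain. They summed to 1326 to 1373 scaled units in Pokkali at 8 h, against 557 to 933 in Pokkali at 0 h, and to 1067 to 1183 in Nipponbare at 8 h, against 337 to 668 in Nipponbare at 0 h. Of the 5, 1 rose in both lines, where 15.2% of all tested loci rose in Pokkali and 14% in Nipponbare. It was RISBZ1, an endosperm transcription factor, which rose 2.12-fold in Pokkali (adjusted p = 0.0104) and 2.17-fold in Nipponbare (adjusted p = 0.00946). That call was lost in Pokkali when 8 h replicate 2 was left out (0.0666) and in Nipponbare when either 8 h array was (0.0540 for replicate 1, 0.0553 for replicate 2). The defining storage protein GluA1 had 847 and 727 in Pokkali at 8 h, against 564 and 213 in Pokkali at 0 h, and 705 and 602 in Nipponbare at 8 h, against 319 and 73.4 in Nipponbare at 0 h. It did not pass (adjusted p = 0.273 in Pokkali and 0.0814 in Nipponbare), and, like RAmy3D, it was lower in replicate 2 than in replicate 1 at 0 h in both lines. With both 0 h arrays of replicate 1 left out GluA1 passed as higher at 8 h in both lines, at 1.88 in Pokkali (adjusted p = 0.00936) and 3.15 in Nipponbare (adjusted p = 0.00537). In Nipponbare GluA1 also passed with 0 h replicate 1 left out (0.0187), with both 0 h arrays of replicate 2 left out (0.0388) and with the replicate block (0.0347). WX, the granule-bound starch synthase of the endosperm, did not pass, at 0.28 in Pokkali (adjusted p = 0.440) and -0.56 in Nipponbare (adjusted p = 0.152), so not all 5 markers moved with the sum, and GluA1 made up more of the sum at 8 h than any other marker. The 26 kDa globulin was well above background on 0 of 2 Pokkali arrays at 8 h and 1 of 2 at 0 h. With both 0 h arrays of replicate 1 left out its log2 difference was 1.46 in Pokkali and 1.55 in Nipponbare, and with those of replicate 2 left out -1.29 in Pokkali. The Pokkali value of 1.46 sets only arrays not well above background against each other, and values this dim have no usable order. Between the lines the endosperm factor RPBF passed as higher in Pokkali, 9.22-fold at 8 h (adjusted p = 0.000921) and 11.1-fold at 0 h (adjusted p = 0.000726). On Nipponbare arrays RPBF was above background on 1 of 2 at each time. It was kept for the tests only through the Pokkali groups, where it read highest, so its line difference is not a separate result. Both RBCS loci were higher in Pokkali at 8 h (adjusted p = 0.0405 and 0.0200), calls that were lost in some fits with arrays left out. The part of organ makeup in the changes of the sucrose and amylase loci was not tested.

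Clock genes moved as well. Of 7 listed, 6 were tested and LHY was not analysed here. PRR1, PRR59 and PRR95 rose in both lines and PRR37 rose in Nipponbare, where 15.2% of all tested loci rose in Pokkali and 14% in Nipponbare. PRR1, whose protein belongs to the evening part of the clock, had 1635 and 1932 in Pokkali at 8 h, against 348 and 319 in Pokkali at 0 h, and 1559 and 1495 in Nipponbare at 8 h, against 172 and 205 in Nipponbare at 0 h. That was a rise of 5.34-fold in Pokkali (adjusted p = 0.00140) and 8.11-fold in Nipponbare (adjusted p = 0.000928). The PRR37 rise in Nipponbare was lost in 13 alternatives, 8 of them by leaving out arrays (adjusted p from 0.0628 to 0.203). PRR59 was lost in Pokkali in 11, of which 7 left out arrays (0.0502 to 0.147), and in Nipponbare in 3 (0.0573 to 0.0644). PRR95 was lost in Pokkali when replicate 2 at 0 h (0.0538) or at 8 h (0.0844) was left out. At 0 h PRR1 and PRR37 were higher in Pokkali than in Nipponbare (adjusted p = 0.0196 and 0.00579), and leaving out arrays lost the PRR1 difference in 5 fits (0.0562 to 0.165). None of the marker or clock loci passed the test of a difference in response (0 loci by limma), where 0.346% of all tested loci did. At an unadjusted p under 0.05 were 2 of 6 clock loci, 3 of 4 leaf markers and 0 of the root and endosperm markers, beside 4726 of the 45411 tested loci. The part of the time of day in the changes of SPS1, SUS1 and RAmy3D was not tested.

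**Figure D4:**
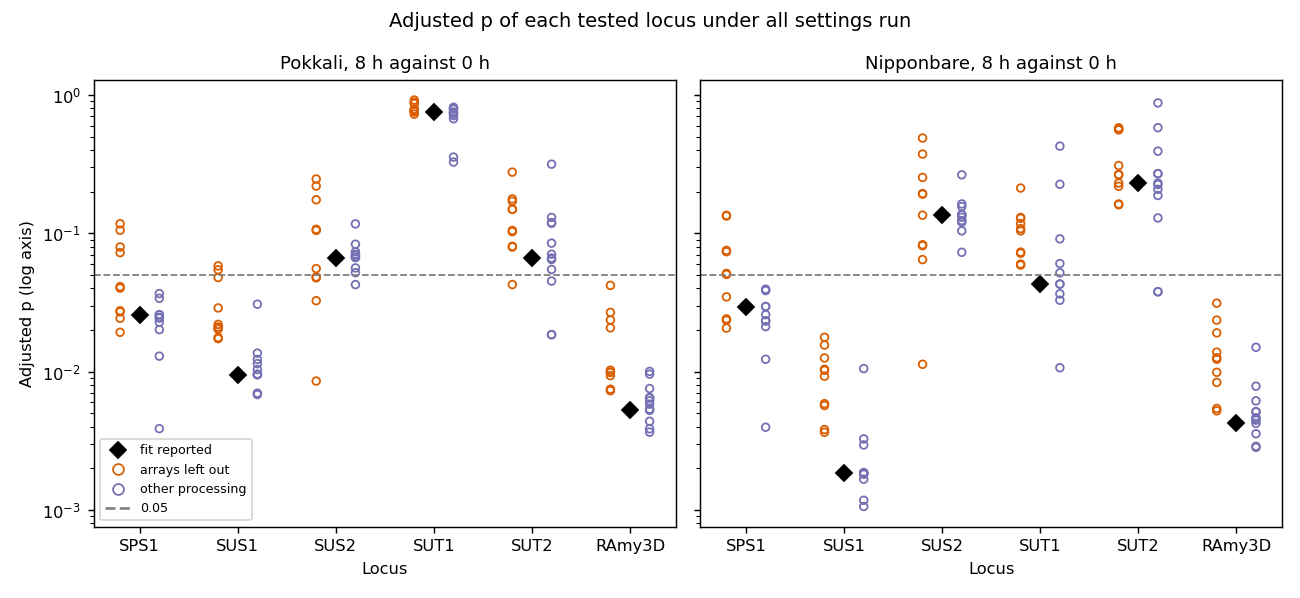
Adjusted p (log axis) of the 8 h against 0 h difference of each tested locus in Pokkali and Nipponbare, for the fit reported (diamonds), for fits with arrays left out (orange) and for other processing (violet), with the threshold of 0.05 dashed. RAmy3D stays under the line in both lines and SUS1 does so in Nipponbare, while SPS1 lies on both sides in both lines and SUT1 does so in Nipponbare.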

How the data were processed

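RNA of each sample was labelled with Cy3 and hybridised to a custom one-colour Agilent array, and the authors deposited Feature Extraction 10.7.1.1 tables, per the file headers. The values used are the deposited processed signal intensity, background-subtracted by the authors' software and neither logged nor scaled between arrays, per the file headers. The authors' flags, of the kind other than a measurement, marked control, outlier, saturated and well-above-background spots in the deposited tables. The design's build was IRGSP5, per the file headers. The slide was 1 and the same for every array, so a slide block could not be fitted, and position on the slide and group cannot be told apart.

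Control and outlier spots were left out, log2 intensity was centred on each array's 75th percentile, and probes of a locus were averaged. Probes were kept where some group had both of its arrays well above background (for probes with several spots, on a share of spots above 0.5), which kept 47559 of 55078. Scaled intensity multiplies back by the arrays' geometric mean percentile. A model of the 4 groups was fitted over all 8 arrays with limma 3.58.1 in R 4.3.3 (4 residual and 2.36 prior degrees of freedom), tested on simulated data first. Groups of 2 allow no two-sided exact permutation p below 0.333, so single-gene tests were made in limma only, and the number of arrays limits the precision.

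Members and lists were chosen with earlier results of these data known. All 8 members are named in each comparison, as are the loci of the other lists that passed or, where none of a list passed between the lines or in response among the sucrose and sugar lists, that with the smallest p. Gene names rest on locus identifiers known from the literature: the RefSeq gene table (assembly ASM3414082v1) matched 0 of the 8 identifiers and held the same name on the same chromosome for 7, all but SPS1. Its coordinates were not used. The alternatives tried were other background corrections, scalings, filters and probe rules, the deposited value table, a replicate block, only the arrays compared, and leaving out arrays. The deposited value table equalled the signals used on 100% of spots of each array, so a pass with it repeats the fit reported. For a locus with 1 kept probe, the rule of the brightest probe gives the same log2 difference as the fit reported. The replicate number was not used as a block in the fit reported, because no label ties the numbers to a shared batch and not every correlation between groups was above 0.1. For 1 Nipponbare 8 h array the title and the description give different replicate numbers. The title was used. The replicate block, the correlations of replicate differences that include Nipponbare at 8 h, and each value that names a Nipponbare 8 h replicate rest on it.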

Additional observations from a re-analysis of the deposited data

How the results depend on the processing

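No difference of the 6 tested loci changed sign with both values past the threshold: of 614 alternative values 568 stayed on the same side of it, 33 lost and 13 gained the call. The 568 include those of the deposited value table, which repeat the fit reported. They also include values that changed sign where neither value passed. An example is the probe to SUT2 transcript model 2 alone, at -0.08 between the lines at 0 h, where the mean of both probes was positive. Normexp correction, chosen after the data were seen because the files lack one mean-signal column, gave 5 called loci of 6 in Pokkali after 8 h and 2 between the lines at 0 h, and no scaling gave 0 at 0 h. For the difference in response over all loci, the count of 157 became 52 with no filter on dim probes and 49 with probes above background on all arrays. With the replicate number as a block it became 30, and the called counts after 8 h were 14397 in Pokkali and 13877 in Nipponbare, while the counts for the 8 loci were as without the block. Of the listed loci the block gained the calls of SUT3 (0.0284), ASN1 (0.0229) and GluA1 in Nipponbare and MYBS1 in Pokkali and lost that of PRR37 in Nipponbare (0.0552), and between the lines it gained PRR59 at 0 h (0.0416) and MYBS1, GAMYB and ASN1 at 8 h. Correlations across loci of the replicate differences were 0.535 between the lines at 0 h, 0.218 between them at 8 h and 0.0613 to 0.113 for the other 4 pairs of groups, so replicates of the same number ran alike within a time and hardly across times. Between the lines at 0 h, fitting only the arrays compared gave 4272 loci, against 7632. Leaving out 1 array gave 4696 to 11891 loci in Pokkali after 8 h (1 to 4 of the 8 loci), 4078 to 12145 in Nipponbare (2 to 3), 0 to 188 for the response (0 throughout), 5379 to 6404 between the lines at 0 h (0 to 1) and 5118 to 9929 at 8 h (1 throughout). The response count was 0 with Pokkali 8 h replicate 1 or replicate 2 left out. With both 0 h arrays of replicate 1 left out it was 10, and the 0 h line count for the 8 loci was 0. With those of replicate 2 left out it was 1, the 0 h line count was 4968 (0 of the 8 loci), and 1 of the 8 loci was called in Pokkali and 2 in Nipponbare. Of the listed loci, 1 reversed: the 26 kDa globulin in Pokkali gave -1.29 with both 0 h arrays of replicate 2 left out, against 0.09. With those of replicate 1 left out it gave 1.46, from arrays that were all not well above background. It was well above background on at most 1 array of each Pokkali group, so these values have no usable order. The causes were not tested. Without scaling, the higher share of called loci was 42.5% in Pokkali and 33.2% in Nipponbare after 8 h, against 56.0% and 53.3%, and in Pokkali against Nipponbare 35.0% at 8 h and 24.0% at 0 h, against 47.9% and 40.0%. It moved the median of all loci to -0.07, -0.17, -0.06 and -0.14 in the same order, against 0.08, 0.05, 0.09 and 0.08. Signal near background leaves SUS3 and RAmy3E unmeasured.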
